A study of Mus musculus with 35 samples.

Results

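The data compared the small intestine of wild-type mice 6 h after a gavage with the synthetic PPARα agonist WY14643 with that of wild-type mice given oleic acid (OA). The 8 arrays were 4 mice per group, 1 mouse per array, out of 35 arrays in the whole series. All 8 were male wild-type mice of strain 129S1/SvImJ, 4 months old. They had eaten a modified AIN76A diet for 2 weeks, in which olive oil replaced corn oil, and had fasted for 4 h. The WY14643 mice received 400 µl of a 0.1% suspension in 0.5% carboxymethyl cellulose. The OA mice received 400 µl of triolein, the triacylglycerol that carries OA only. RNA came from the full-length small intestine. The WY14643 gavage contained no fat and no carboxymethyl cellulose group was analysed here, so within wild-type mice the presence of the drug and the absence of a fat load cannot be told apart. A gene "higher after WY14643" is in the same way lower after OA. The same gavages in PPARα-null mice of strain 129S4/SvJae, 4 mice per group, were set beside the wild-type arrays. Their background strain differs from that of the wild-type mice, so genotype and substrain cannot be told apart either.

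PPARα is a nuclear receptor that fatty acids and fibrate-like drugs activate. With its partner RXR it binds direct repeats of a short DNA element and switches on genes that take up, activate and oxidise fatty acids in mitochondria, peroxisomes and the endoplasmic reticulum. In the small intestine it is expressed in the absorptive enterocytes, the cells that take up dietary fat and pack it into chylomicrons. Triolein is hydrolysed in the gut lumen, and the OA it releases can itself bind PPARα.

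A probeset was called expressed when the mean of at least 1 of the 8 groups of the series was above log2 5, that is above 32 on the linear scale. This rule kept 15384 of 45101 probesets, of which 13710 carried a single gene symbol and stood for 8626 genes. All levels below are GCRMA values on the log2 scale. A difference is the WY14643 mean minus the OA mean on that scale, given with its standard error (SE), and a fold change is the same difference on the linear scale. Where the lower group lay under log2 5, the fold change was computed against that limit and is given as "at least". A gene was called when an expressed probeset of it had an adjusted p under 0.05.

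The 8 arrays were alike in scale. Their medians lay between 2.83 and 2.87, and 31.9% to 32.2% of the probesets were above log2 5. The first principal component held 52.1% of the variance and separated the groups. Replicate 4 of the WY14643 group stood apart on it, at 9.58 against 33.97 to 37.40 for the other 3 WY14643 arrays and −34.17 to −19.89 for the OA arrays. On the second component (18.7%), replicate 3 of both groups stood apart, at 25.92 for WY14643 and 31.53 for OA, where the highest of the other arrays lay at 4.47. Of the enterocyte markers 10 were expressed, and the log2 of their summed linear level was 16.96 to 17.01 after WY14643 and 16.95 to 17.00 after OA. Sucrase-isomaltase (Sis) was not among them and was not examined, since its symbol was matched to another gene, Pdgfb. Among the arrays outside this contrast 3 went against their genotype label. One of them was PPARα-null OA replicate 1, with a Cyp4a10/Cyp4a31 value of 10.61 where the other 3 null OA arrays measured 2.47, 2.16 and 2.25. For single genes, the differences in PPARα-null mice and the interactions (the wild-type difference minus the null difference) are therefore those without this array, called the doubtful array below. Counts of genes are given with it as labelled and without it.

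WY14643 and OA left different transcript profiles. Of 8626 expressed genes 2882 were called (33.4%). Of these, 1415 were higher after WY14643 (16.4%), 1464 were lower (17.0%), and 3 had probesets called both ways. The values of the groups did not overlap for 2834 genes (32.9%) at the probeset of highest mean. Most differences were small: the median absolute difference of the called genes was 0.54, and 1271 of them (44.1%) differed by under 0.5. By more than 1, 2 and 3 on the log2 scale, 229, 32 and 5 genes rose and 145, 20 and 3 fell. The median difference over all expressed genes was −0.006. Without WY14643 replicate 4 the count was 3112, and 2670 genes were called in both fits. With the unadjusted p under 0.01, 2639 genes passed (30.6%). In bulk tissue, fewer cells of a type and less RNA per cell cannot be told apart.

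**Figure D1:**
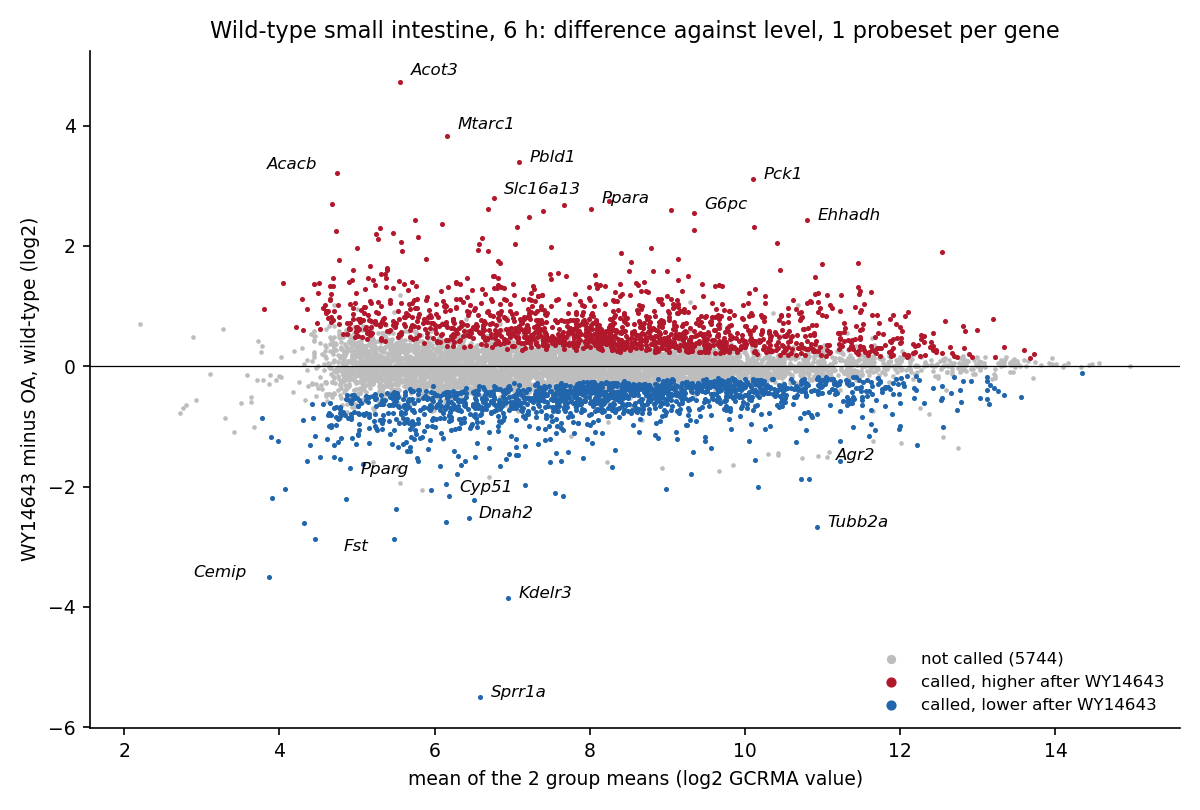
Difference between WY14643 and OA in wild-type small intestine (y axis, log2) against the mean of the 2 group means (x axis, log2 GCRMA value), 1 point per gene, red for genes called higher after WY14643, blue for genes called lower and grey for the 5744 genes not called. Acot3 lies highest at 4.73 and Sprr1a lowest at −5.50.

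The lists of related genes differed in direction. Lists of fatty acid oxidation, of drug and xenobiotic metabolism, of sterol flux and of the circadian clock held mainly genes that were higher after WY14643. Lists of crypt proliferation, cholesterol synthesis, the unfolded protein response and lipogenesis held mainly genes that were lower, as far as they were called. Few genes of the respiratory chain were called, 5 of 71 expressed members higher and 2 lower, with a median difference of 0.06. Of 20 TCA cycle genes 5 were higher and none was lower.

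**Figure D2:**
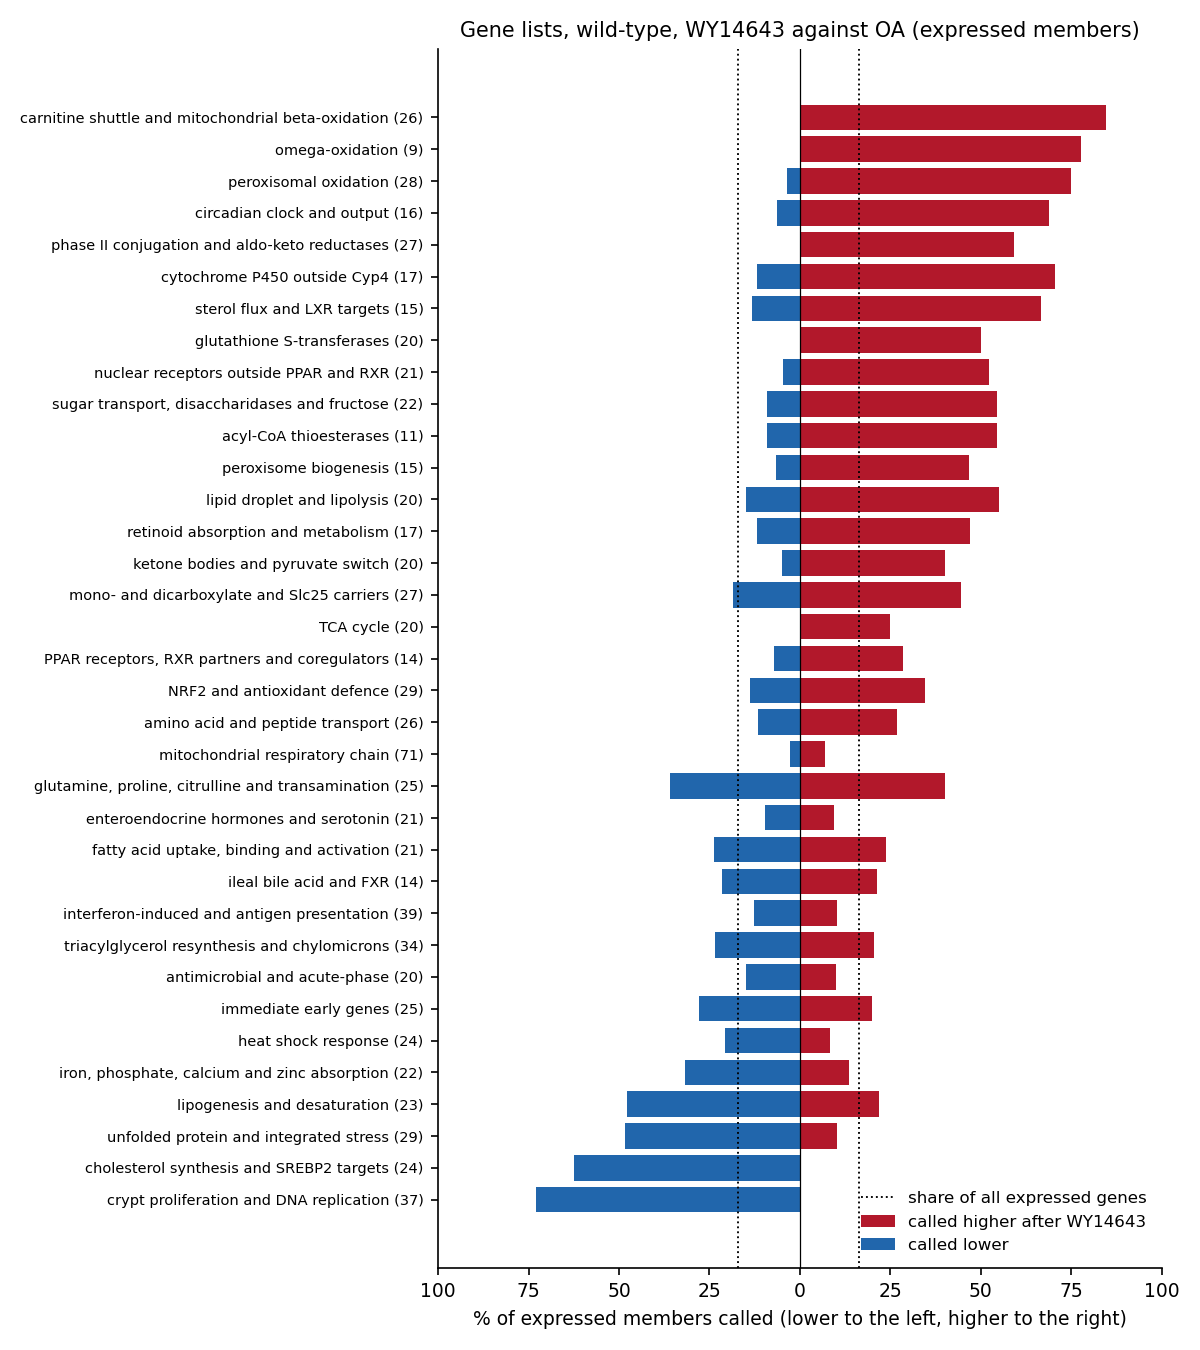
Share of the expressed members of each gene list that was called higher (red, to the right) or lower (blue, to the left) after WY14643 than after OA in wild-type mice, in percent, with the number of expressed members in parentheses. Dotted lines mark the share of all expressed genes, 16.4% higher and 17.0% lower.

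Acyl-CoA thioesterases, which split fatty acyl-CoA into free fatty acid and coenzyme A, held the gene with the largest positive difference, measured against a group under the expression limit. Acot3, a peroxisomal member, measured 8.55, 8.49, 8.24 and 6.39 after WY14643. After OA it measured 3.85, 3.14, 3.08 and 2.67, under the expression limit in every mouse. The groups did not overlap, and WY14643 replicate 4 was the lowest of its group. The difference was 4.73 ± 0.46 (SE, 4 mice per group; adjusted p = 0.000344), at least 7.57-fold. By fold change, 8.62-fold for Pck1 and 7.88-fold for the probeset of Cyp4a10 and Cyp4a31 were above this bound. In PPARα-null mice the difference was −0.11 ± 0.29, and the interaction was 4.84 ± 0.59 (adjusted p = 0.00082).

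The list as a whole had 11 expressed members, of which 6 were higher after WY14643 and 1 (Acot9) was lower, with a median difference of 0.91. Acot1, the cytosolic member, lay at 11.36, 11.61, 11.39 and 10.67 after WY14643 and at 9.83, 9.48, 9.88 and 9.43 after OA, a difference of 1.60 ± 0.19 (adjusted p = 0.000632). In PPARα-null mice it ran the other way: 6.25, 6.93, 7.24 and 7.18 after WY14643 against 8.23, 8.46 and 8.45 after OA, again without overlap. There the difference was −1.48 ± 0.23 (adjusted p = 0.00272). Acot2, the mitochondrial member, rose by 0.94 in wild-type mice and fell by 0.97 in null mice. Acot1 and Acot2 are close in sequence, and signal may cross between their probesets. The interaction passed for 5 of the genes as labelled (Acot1, Acot2, Acot3, Acot4 and Acot8) and for 5 without the doubtful array. Over all genes 125 (1.45%) passed it as labelled, 95 with a positive interaction (1.10%) and 30 with a negative one (0.348%). Without that array 100 passed (1.16%), 82 of them positive (0.951%) and 18 negative (0.209%).

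Mitochondrial fatty acid oxidation moved nearly as a block. Of 26 expressed genes of the carnitine shuttle and β-oxidation, 22 were higher after WY14643 and none was lower, with a median difference of 0.62. Slc22a5, the carnitine importer OCTN2, measured 11.82, 12.20, 12.02 and 11.34 after WY14643 and 10.37, 9.91, 10.20 and 10.09 after OA. It rose by 1.70 ± 0.17 (adjusted p = 0.00036), with no overlap. Slc25a20, which carries acylcarnitine across the inner membrane, lay at 11.62, 11.73, 11.81 and 11.25 against 10.57, 10.57, 10.67 and 10.53 after OA. The difference was 1.01 ± 0.11 (2.02-fold; adjusted p = 0.000468). Cpt1a, the rate-limiting step of carnitine-dependent entry, differed less, by 0.42 ± 0.09 (adjusted p = 0.00951), and 1 of its 3 expressed probesets was called. The next steps rose as well: Cpt2 by 0.47, the trifunctional protein subunits Hadha and Hadhb by 0.63 and 0.65, and Eci1 and Eci2, isomerases for unsaturated acyl chains, by 1.33 and 1.49. Etfdh, which passes the electrons on to ubiquinone, rose by 0.85.

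In PPARα-null mice 6 of these genes were higher and 6 lower after WY14643, without the doubtful array (26.7% of all genes were called there, 25.9% as labelled). As labelled, the counts were 1 higher and 6 lower. Slc25a20 fell by 0.84 ± 0.14 (adjusted p = 0.00471) and Cpt1a by 0.64 ± 0.10 (adjusted p = 0.00327) in null mice. Cpt2, Hadha and Hadhb, which rose in wild-type mice, fell there by 0.42, 0.49 and 0.39. Acads, Acad11, Acadm and Acaa2, which also rose in wild-type mice, had no called interaction as labelled. The interaction passed for 12 of the 26 genes as labelled and 12 without that array. It was 1.86 ± 0.19 for Slc25a20, 1.06 ± 0.14 for Cpt1a and 1.04 ± 0.10 for Hadhb (adjusted p = 0.000186, 0.00151 and 7.51e-05).

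Among the 83 genes that were higher after WY14643 with a positive interaction as labelled, 75 had a RefSeq promoter of 300 bases, 250 before the start to 50 after it. The element of PPARα and RXR, 2 copies of AGGTCA in the same direction with 1 base between them, was searched on both strands with up to 2 mismatches. It was found in 6 of these promoters (8%), against 4.4% of 27025 promoters. Other motifs were also more frequent in these 75 promoters than in all: the E-box CACGTG was in 16% against 8.09%, and TCACNCCAC, of the type that SREBP2 binds, in 2.67% against 1.44%, each searched without mismatches. Of the 3 shown here, which belong to genes described in the text, the match is in capitals. Acot4 lies at chr12:84038129-84038428 on the plus strand, Slc25a20 at chr9:108661886-108662185 on the plus strand and Nr1h4 at chr10:89506609-89506908 on the minus strand (GRCm38.p6). Each is written 5′ to 3′ along the gene. The match in Slc25a20 runs along the gene, while those in Acot4 and Nr1h4 lie on the opposite strand.
Acot4: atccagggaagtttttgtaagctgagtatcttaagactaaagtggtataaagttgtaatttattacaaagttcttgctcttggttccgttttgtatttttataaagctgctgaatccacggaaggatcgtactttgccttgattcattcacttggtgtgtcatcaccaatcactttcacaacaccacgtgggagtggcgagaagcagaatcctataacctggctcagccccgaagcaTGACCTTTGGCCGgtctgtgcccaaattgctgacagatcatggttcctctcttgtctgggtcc
Slc25a20: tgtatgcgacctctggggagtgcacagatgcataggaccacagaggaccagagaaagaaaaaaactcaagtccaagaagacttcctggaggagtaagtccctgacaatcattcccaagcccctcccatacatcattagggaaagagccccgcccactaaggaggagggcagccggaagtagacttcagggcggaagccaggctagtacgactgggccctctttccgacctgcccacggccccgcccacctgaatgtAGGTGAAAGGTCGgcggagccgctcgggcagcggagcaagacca
Nr1h4: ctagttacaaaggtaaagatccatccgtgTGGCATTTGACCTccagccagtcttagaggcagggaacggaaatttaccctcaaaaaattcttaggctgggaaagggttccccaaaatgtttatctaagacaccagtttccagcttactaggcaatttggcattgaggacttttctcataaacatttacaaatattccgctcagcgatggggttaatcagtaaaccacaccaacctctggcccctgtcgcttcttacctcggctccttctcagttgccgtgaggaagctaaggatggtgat

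Peroxisomal oxidation, which shortens very long and branched chains, held 21 higher genes among 28 expressed, and 1 (Agps) was lower, with a median difference of 0.58. Ehhadh, the bifunctional enzyme of the pathway, measured 12.05, 12.51, 12.16 and 11.33 after WY14643 and 9.69, 9.60, 9.53 and 9.51 after OA. It rose by 2.42 ± 0.20 (5.37-fold; adjusted p = 0.000193). In null mice it rose by 0.72 ± 0.10 (adjusted p = 0.00154), and the interaction of 1.70 ± 0.25 passed (adjusted p = 0.00297). Acaa1b, a peroxisomal thiolase, rose by 1.90 ± 0.21. Acox2, the oxidase for branched chains and bile acid intermediates, rose by 2.37 ± 0.28 (adjusted p = 0.00058) and by 1.35 in null mice, with no interaction called (adjusted p = 0.326). Hsd17b4, Abcd3, Hsdl2 and Pxmp4 rose by 1.20, 0.59, 1.59 and 1.58, with interactions of 0.99, 0.88, 2.16 and 1.89 that passed. In null mice Hsdl2 and Abcd3 fell, by 0.57 and 0.29.

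Of 15 peroxisome biogenesis genes 7 were higher and 1 (Dnm1l) was lower. Pex11a, which elongates peroxisomes before they divide, rose by 0.75 ± 0.17 in wild-type mice and fell by 0.83 ± 0.15 in null mice (adjusted p = 0.0108 and 0.00552). Among 9 expressed genes of the list for ω-oxidation, 7 were higher and none was lower. The higher ones include the alcohol dehydrogenases Adh1, Adh4 and Adh5, and no Cyp4a gene of the list had an expressed single-symbol probeset. In null mice, with or without the doubtful array, 7 of the 9 were higher and 1 was lower (15.4% and 11.2% of all genes without it). None of them had a called interaction. The fatty acid ω-hydroxylases Cyp4a10 and Cyp4a31 shared a probeset that also served as a check of the genotype labels. It measured 12.50, 12.75, 12.33 and 11.83 after WY14643 and 9.73, 8.81, 9.48 and 9.46 after OA, a 7.88-fold difference (2.98 ± 0.22; adjusted p = 0.000172). In PPARα-null mice it measured 2.00, 1.92, 1.60 and 1.85 after WY14643, under the expression limit. As labelled the interaction was not called (adjusted p = 0.218). No interaction is given without the doubtful array, since this probeset was used to set that array aside.

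**Figure D3:**
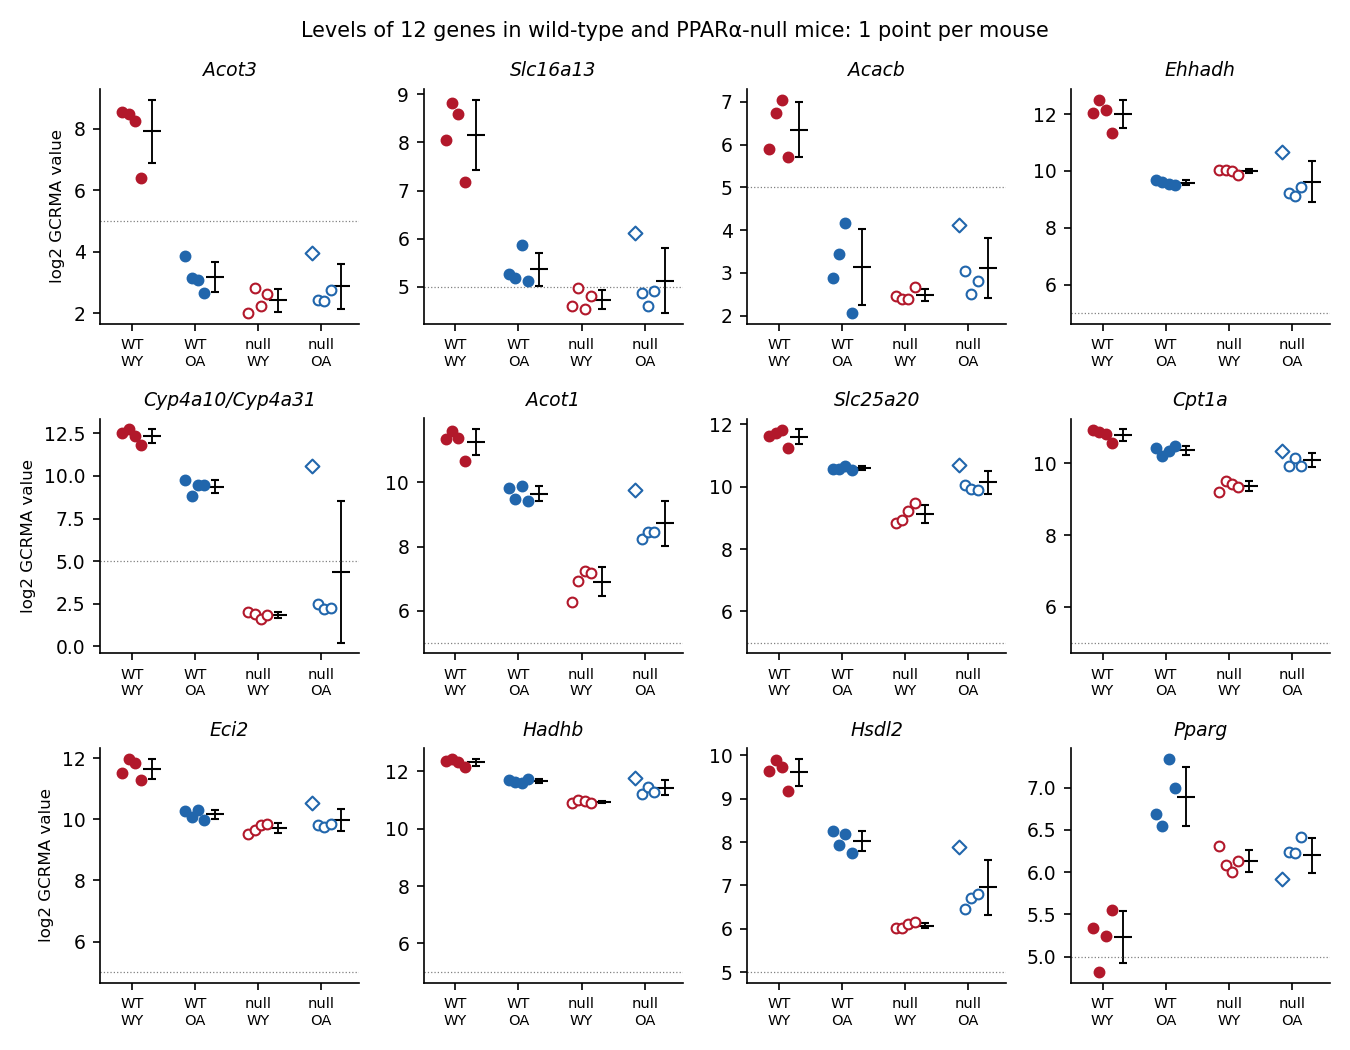
Log2 GCRMA values of 12 genes in each mouse, wild-type (filled) and PPARα-null (open), after WY14643 (red) and OA (blue), with the mean and SD of all 4 mice beside the points. Diamonds mark PPARα-null OA replicate 1, which goes against its genotype label, and the dotted line marks the expression limit of 5. In wild-type mice 11 of the genes were higher after WY14643 and Pparg was lower, without overlap between the groups.

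Slc16a13, a member of the monocarboxylate transporter family, measured 8.05, 8.81, 8.59 and 7.18 after WY14643 and 5.26, 5.18, 5.87 and 5.13 after OA. It rose 6.95-fold (2.80 ± 0.33; adjusted p = 0.000596), and in null mice the difference was −0.07 ± 0.19. Acacb makes the malonyl-CoA that holds back Cpt1a. It lay at 5.90, 6.75, 7.05 and 5.71 after WY14643. After OA it lay at 2.88, 3.45, 4.17 and 2.06, under the expression limit in every mouse. The difference was 3.21 ± 0.45 (adjusted p = 0.00127), and the interaction was 3.52 ± 0.56. Aqp3, a channel for water and glycerol, rose by 2.03 ± 0.25, with an interaction of 2.58 ± 0.40. Of the genes chosen after their values were seen, Pank1 and Ppcs, which act in the synthesis of coenzyme A, rose by 1.19 and 0.96, with interactions of 1.26 and 1.20. Fah, the last enzyme of tyrosine breakdown and chosen in the same way, rose by 1.97 with an interaction of 1.52.

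Among the receptor genes, Ppara was higher and Pparg lower after WY14643. Ppara was probed by 3 expressed probesets, of which 3 were called higher. The one given here measured 9.57, 9.59, 9.41 and 8.71 after WY14643 and 6.78, 6.53, 7.07 and 6.42 after OA, a 6.13-fold difference (2.62 ± 0.21; adjusted p = 0.000178). In null mice the same probeset was still detected and rose by 1.45 ± 0.21 (adjusted p = 0.00246), and the interaction of 1.17 was not called (adjusted p = 0.132). Whether this probeset lies in the deleted part of the gene is not given in the sources used here. Pparg, the family member known from fat cells, lay at 5.34, 4.82, 5.24 and 5.55 against 6.69, 6.55, 7.34 and 6.99 after OA (−1.66 ± 0.21; adjusted p = 0.000784), with no overlap. In null mice it did not pass the test (−0.16 ± 0.14), and the interaction of −1.50 ± 0.26 did (adjusted p = 0.0101). Ppargc1a, a coactivator of oxidative genes, rose in both genotypes, by 0.85 and 0.66. Of 14 expressed genes of this list, 4 were higher and 1 was lower.

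Lipid droplet and lipolysis genes were higher more often than lower (11 and 3 of 20). Angptl4, a secreted inhibitor of lipoprotein lipase, measured 11.20, 11.65, 11.54 and 10.70 after WY14643 and 9.45, 8.58, 9.00 and 8.81 after OA (2.31 ± 0.23; adjusted p = 0.000344). Mgll, which cleaves the last fatty acid from glycerol, and Fitm2, which acts in droplet formation, rose by 1.33 and 1.30, with interactions of 1.56 and 1.69 that passed. Lipe, the hormone-sensitive lipase, rose by 1.77, and Ces1d, a carboxylesterase, by 2.74. Plin2, a coat protein of fat droplets, did not pass the test in wild-type mice (0.04 ± 0.17; adjusted p = 0.895). In null mice it fell by 0.85 (adjusted p = 0.00845), and its interaction of 0.89 was not called (adjusted p = 0.176).

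Fatty acid uptake and activation were split, with 5 of 21 expressed genes higher and 5 lower. Cd36, a fatty acid translocase, rose by 1.20 ± 0.14 (adjusted p = 0.000549). Acsm5, a medium-chain acyl-CoA synthetase, rose by 2.70 ± 0.21, from an OA mean of 3.33 that lay under the expression limit. The abundant binding proteins did not pass the test in wild-type mice: Fabp1 differed by 0.01 ± 0.03 and Fabp2 by 0.02 ± 0.04 (adjusted p = 0.864 and 0.745). In null mice Fabp1 was called lower, and its positive interaction was called as labelled and without the doubtful array. Of 34 genes of triacylglycerol resynthesis and chylomicron assembly, 7 were higher and 8 lower.

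Of 20 expressed genes of the list of ketone bodies and the pyruvate switch, 8 were higher, 1 (Pdhx) was lower and 11 were not called, with a median difference of 0.21. Pck1, the first step of gluconeogenesis from oxaloacetate, measured 11.15, 12.10, 12.21 and 11.16 after WY14643 and 9.20, 8.24, 8.60 and 8.15 after OA. It rose 8.62-fold (3.11 ± 0.30; adjusted p = 0.000331). In null mice it rose by 3.17 ± 0.65 (adjusted p = 0.01), and the interaction was −0.06 (adjusted p = 0.996). G6pc, which frees glucose from glucose 6-phosphate, rose by 2.54 ± 0.20 in wild-type and 2.50 ± 0.41 in null mice. Fbp1, the fructose bisphosphatase, rose by 0.86 and 1.05. Pdk4 and Pdk2, kinases that switch off pyruvate dehydrogenase, rose in wild-type mice by 1.72 and 1.52. In null mice Pdk2 rose by 1.53, while Pdk4 did not pass the test (0.82; adjusted p = 0.094). Neither interaction was called (adjusted p = 0.592 for Pdk4 and 0.997 for Pdk2).

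Cholesterol synthesis was lower after WY14643 than after OA. Of 24 expressed genes 15 were lower and none was higher, with a median difference of −0.56 in wild-type and −0.51 in null mice. Cyp51, the lanosterol demethylase, measured 4.96, 4.83, 4.56 and 6.06 after WY14643 and 7.07, 7.19, 7.70 and 7.10 after OA. The difference was −2.16 ± 0.30 (adjusted p = 0.00118), and replicate 4 was the highest of the WY14643 group. Sqle, the squalene epoxidase, lay at 7.50, 6.34, 7.19 and 8.75 against 8.97, 9.18, 9.23 and 9.11 after OA, a difference of −1.68 ± 0.40 (adjusted p = 0.0132). Idi1 and Hmgcs1, enzymes of the mevalonate pathway, and Srebf2, the transcription factor of the pathway, fell by 1.24, 1.06 and 1.00. In null mice, without the doubtful array, 12 of the genes were lower and 1 was higher (11.2% and 15.4% of all genes). None of the genes had a called interaction.

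TCACNCCAC was searched in this list too, on both strands. Of the 12 lower genes of this list with a RefSeq promoter, 1 held it (8.33%), against 1.44% of 27025 promoters. This was Hmgcs1, at chr13:119690101-119690400 on the plus strand (GRCm38.p6), shown with the match in capitals.
Hmgcs1: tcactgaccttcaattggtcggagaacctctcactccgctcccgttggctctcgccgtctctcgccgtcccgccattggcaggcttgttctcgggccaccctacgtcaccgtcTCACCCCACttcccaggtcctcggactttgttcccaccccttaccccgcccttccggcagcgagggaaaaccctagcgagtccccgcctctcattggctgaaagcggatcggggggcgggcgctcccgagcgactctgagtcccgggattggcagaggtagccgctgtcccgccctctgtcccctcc

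Of 23 lipogenesis genes 11 were lower and 5 higher. Fasn, the fatty acid synthase, fell by 1.21 ± 0.21 and Elovl6, an elongase, by 1.12 ± 0.19 (adjusted p = 0.00288 and 0.0029). Both also fell in null mice, by 0.94 and 1.23. Srebf1, the transcription factor of lipogenesis, rose by 0.53 ± 0.14 (adjusted p = 0.0205), a call that was lost without OA replicate 2 (0.43; adjusted p = 0.0512) and without WY14643 replicate 2 (0.49; adjusted p = 0.0582). Sterol flux held 10 higher genes and 2 lower ones of 15. Abcg8, part of the pump that returns sterols to the gut lumen, measured 10.65, 10.76, 10.65 and 9.83 after WY14643 and 8.46, 8.01, 8.15 and 8.24 after OA (2.26 ± 0.20; adjusted p = 0.000227). Its partner Abcg5 rose by 0.97, and in null mice Abcg8 rose by 2.60 and Abcg5 by 1.04. Abca1, which loads cholesterol onto lipoprotein particles, rose by 2.60 ± 0.25. The gene passed the interaction with and without the doubtful array through its probesets. The probeset given here had an interaction of 1.69 and an adjusted p of 0.0456 without that array and of 0.0513 as labelled. Lpcat3 and Scarb2 rose by 0.24 and 1.35, with interactions of 0.54 and 1.31 that passed.

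Of 14 expressed genes of ileal bile acid handling, 3 were higher and 3 lower. Nr1h4, the bile acid receptor FXR, measured 9.59, 9.60, 9.58 and 9.48 after WY14643 and 9.02, 8.55, 8.78 and 8.34 after OA (0.89 ± 0.13; adjusted p = 0.0016). Its interaction of 1.19 ± 0.22 passed. The bile acid importer Slc10a2, the exporter subunit Slc51b and the binding protein Fabp6 fell by 0.97, 0.89 and 0.52. Cyp27a1, which oxidises sterol side chains, rose by 1.58 in wild-type and 1.48 in null mice.

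Sugar handling held 12 higher genes and 2 lower ones of 22, without sucrase-isomaltase, whose symbol was matched to Pdgfb. Slc5a4a, a member of the sodium-glucose transporter family, measured 8.14, 7.39, 8.59 and 7.84 after WY14643 and 5.78, 4.28, 5.65 and 5.81 after OA. It rose by 2.61 ± 0.36 in wild-type and by 3.27 ± 0.26 in null mice (adjusted p = 0.00119 and 0.000194). Lct, lactase, rose by 0.41 and 0.59. The main glucose transporters of the brush border and the basal side did not pass the test, Slc5a1 at −0.06 ± 0.08 and Slc2a2 at 0.07 ± 0.10. Slc2a1, the widely expressed glucose transporter, fell by 1.47 ± 0.20 (adjusted p = 0.00106). Of 26 amino acid and peptide transporters 7 were higher and 3 lower. Slc7a8 and Slc16a10, carriers of neutral and aromatic amino acids, rose by 1.18 and 0.96 in wild-type and by 1.34 and 1.26 in null mice.

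Amino acid metabolism was split, with 10 of 25 genes higher and 9 lower. The serine pathway was among the lower genes. Psat1, its transaminase, measured 5.41, 5.48, 5.26 and 6.06 after WY14643 and 6.93, 7.27, 6.93 and 7.02 after OA (−1.49 ± 0.18; adjusted p = 0.000644). Phgdh, the entry step of serine synthesis, and Shmt2, which passes its carbon to folate, fell by 1.21 and 0.88. In null mice Psat1, Phgdh and Shmt2 fell by 2.19, 1.33 and 1.18.

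Xenobiotic metabolism was mostly higher after WY14643. Of 17 cytochrome P450 genes outside Cyp4, 12 were higher and 2 lower. Of 27 conjugation and aldo-keto reductase genes 16 were higher and none lower, and of 20 glutathione S-transferases 10 were higher and none lower. Without the doubtful array, these lists held 10, 18 and 4 higher genes in null mice and 0, 1 and 0 lower ones. There, 15.4% of all genes were higher. Akr1b8 had a positive called interaction as labelled, and Akr1c12 and Akr1c13 had negative ones. Among these, Akr1c13 passed without that array too. Cyp2c65 and Cyp2s1 rose by 0.90 and 0.81, Ugt2b36 by 0.74, Gstt1 by 0.64 and Gstm4 by 1.05. Adh4, an alcohol dehydrogenase that also oxidises retinol, measured 9.50, 9.33, 9.51 and 9.05 against 7.72, 7.37, 7.46 and 7.29 (1.89 ± 0.13; adjusted p = 0.000172), and rose by 1.53 in null mice. Abcg2, an efflux pump for drugs, rose by 0.60 ± 0.09 with an interaction of 0.65 that passed. Retsat, which saturates retinol, rose by 1.07 with an interaction of 1.34, and Lrat, which stores it as ester, rose by 1.00 in wild-type and 1.07 in null mice. Of 17 retinoid genes 8 were higher and 2 lower.

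The circadian clock and its output genes were mostly higher in both genotypes. Of 16 expressed genes 11 were higher and 1 (Bhlhe40) was lower, with a median difference of 0.61 in wild-type and 0.73 in null mice. Dbp, a transcription factor driven by the clock, measured 9.50, 8.89, 8.94 and 9.38 after WY14643 and 8.14, 7.96, 8.40 and 8.19 after OA (1.01 ± 0.16; adjusted p = 0.00188). Hlf, a close relative, rose by 1.12 ± 0.21, and Per3 and Nr1d2 by 1.02 and 0.62. In null mice Dbp, Hlf, Per3 and Nr1d2 rose by 0.91, 1.29, 1.76 and 0.86. None of the list's genes had a called interaction as labelled.

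Crypt proliferation genes were lower after WY14643. Of 37 expressed genes 27 were lower and none was higher, with a median difference of −0.50. The lower genes include Cdkn1a, an inhibitor of the cell cycle. Rrm2, the ribonucleotide reductase subunit that S phase needs, lay at 7.76, 8.16, 7.91 and 8.51 against 9.11, 9.26, 9.24 and 9.07 after OA (−1.09 ± 0.15; adjusted p = 0.00117). Mcm2, a subunit of the replication helicase, fell by 1.29, Top2a by 0.77 and Mki67 by 0.45. In null mice, without the doubtful array, 19 of the genes were lower and none was higher, where 11.2% of all genes were lower. None of 4 expressed crypt stem cell markers was called.

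Of 29 genes of the unfolded protein response 14 were lower and 3 higher, with a median difference of −0.37. Creld2 and Sdf2l1, which act in the endoplasmic reticulum, fell by 0.72 and 1.35. Of 24 heat shock genes 5 were lower and 2 higher, in all 29.2%. Of 25 immediate early genes 7 were lower and 5 higher. Atf3 and Egr1 fell by 1.34 and 1.28, while Gadd45b rose by 1.00 with an interaction of 1.44 that passed. Of 39 interferon-induced and antigen presentation genes 5 were lower and 4 higher (23.1%). Usp18, an interferon-induced protease, fell by 1.60 in wild-type and 1.78 in null mice.

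Further lists were split or held few calls. Of 27 carriers of carboxylates and of the mitochondrial inner membrane 12 were higher and 5 lower, and of 21 nuclear receptors outside the PPAR and RXR families 11 were higher and 1 (Hnf4a) was lower. Of 29 genes of antioxidant defence 10 were higher and 4 lower. Of 22 genes of mineral absorption 7 were lower and 3 higher, with the metallothioneins Mt1 and Mt2 and the phosphate importers Slc20a1 and Slc20a2 among the lower ones. Of 20 antimicrobial genes 3 were lower and 2 higher, and of 21 enteroendocrine genes 2 were lower and 2 higher.

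The largest falls were led by Sprr1a. Sprr1a, a cornified envelope protein of stressed epithelia, measured 3.18, 3.69, 2.87 and 5.61 after WY14643 and 9.03, 9.71, 9.61 and 9.02 after OA. The difference was −5.50 ± 0.52 (adjusted p = 0.000295), at least 20.2-fold. In null mice it was −5.22 ± 0.32. Kdelr3, a receptor that retrieves proteins to the endoplasmic reticulum, lay at 4.30, 4.77, 4.47 and 6.54 against 8.76, 8.72, 8.93 and 9.08 after OA (−3.85 ± 0.42; adjusted p = 0.00049). In null mice the difference was −3.73. Tubb2a, a β-tubulin, measured 9.03, 9.47, 9.59 and 10.29 against 12.38, 11.96, 12.59 and 12.14 after OA (−2.67 ± 0.24; adjusted p = 0.000254). In each of these genes WY14643 replicate 4 was the mouse of its group nearest to the OA group. Cemip, which degrades hyaluronan, Fst, an activin antagonist, and Tnfrsf12a, the receptor of TWEAK, fell by 3.50, 2.87 and 2.22, and in null mice by 1.97, 2.48 and 1.72. Agr2, a disulfide isomerase of goblet cells, fell by 1.00 ± 0.09 and by 0.96 in null mice. Of 8 expressed goblet cell markers 1, Agr2, was called.

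**Figure D4:**
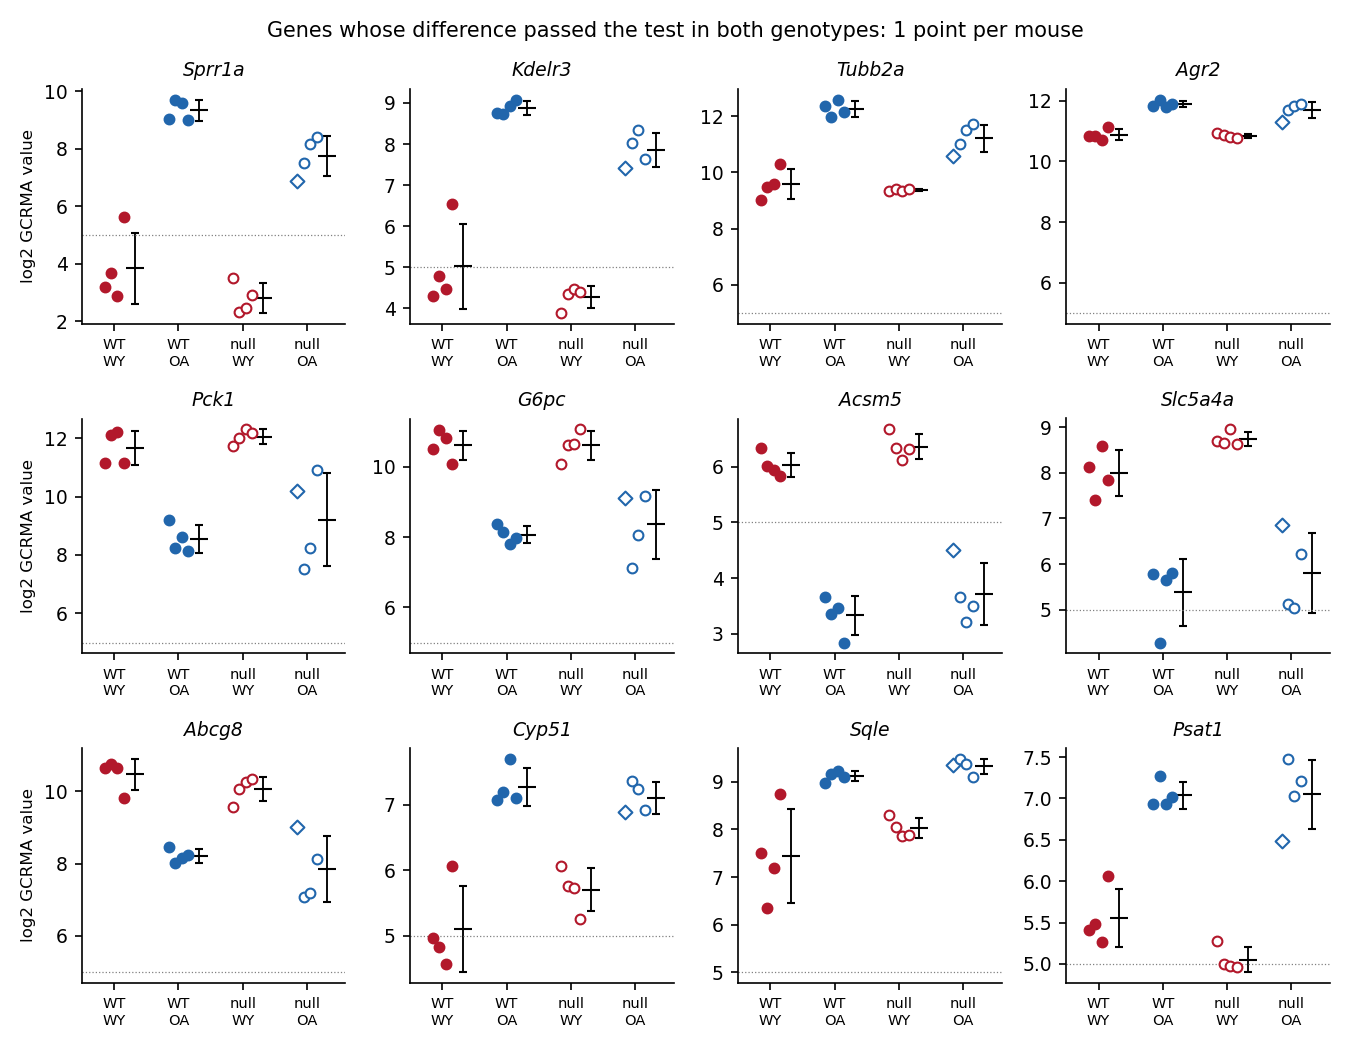
Log2 GCRMA values of 12 genes in each mouse, drawn as in the plot that holds Acot3: wild-type filled, PPARα-null open, WY14643 red, OA blue, mean and SD beside the points, and a diamond for PPARα-null OA replicate 1. Sprr1a, Kdelr3, Tubb2a, Agr2, Cyp51, Sqle and Psat1 had a lower mean after WY14643 in both genotypes, and the other 5 genes had a higher mean.

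Across all genes, the same gavages in PPARα-null mice gave 2236 called genes as labelled (25.9%) and 2300 without the doubtful array (26.7%). Of the 2882 genes called in wild-type mice, 1556 (54.0%) were called the same way in null mice without that array, which is 67.7% of the null calls, and 28 were called the opposite way. The 2 contrasts share no array. With all arrays as labelled, 1462 genes were called the same way (50.7% of the wild-type and 65.4% of the null calls) and 29 the opposite way. Of the 125 genes with an interaction as labelled, 83 rose in wild-type mice with a positive interaction, 16 fell with a negative one and 22 were not called in wild-type mice. In the others the signs differed, with 2 that rose and 2 that fell in wild-type mice. Without the doubtful array 86 of the 125 passed. Among the 206 expressed genes of the fatty acid lists, 129 were called in wild-type mice, and 29 had a called interaction (28 without that array).

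**Figure D5:**
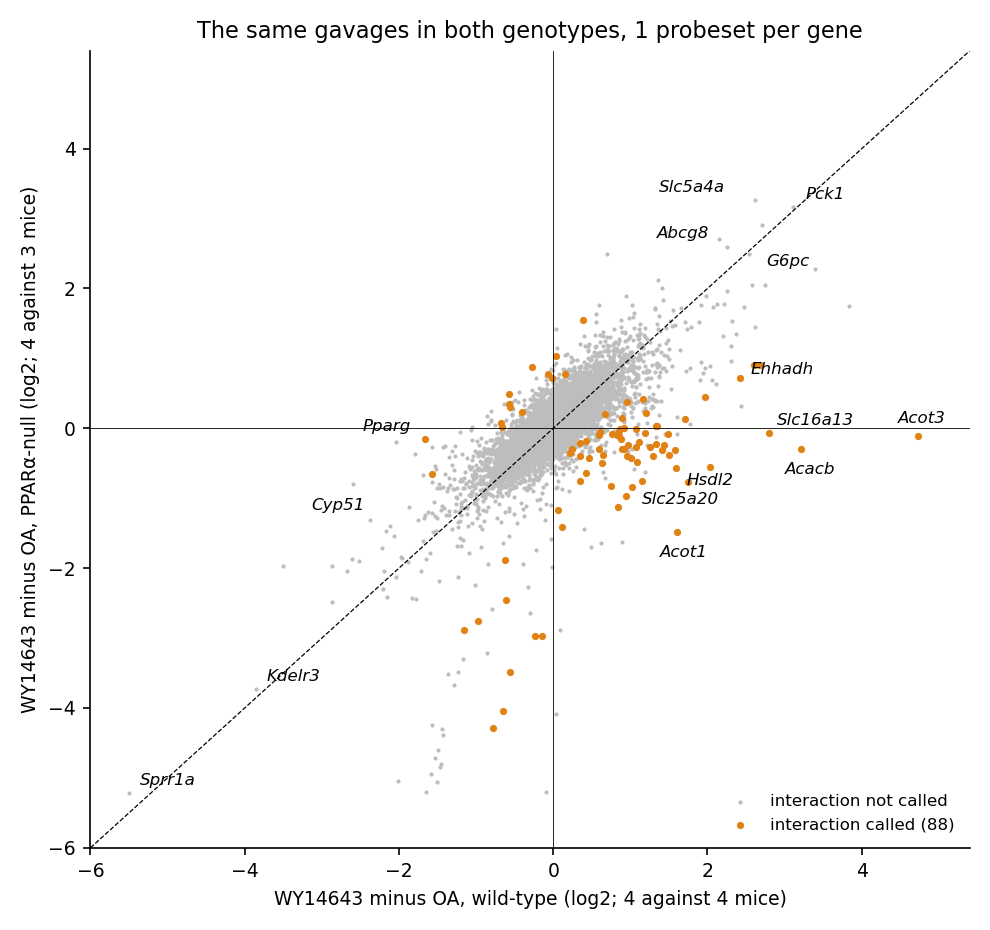
Difference between WY14643 and OA in wild-type mice (x axis, log2, 4 against 4 mice) and in PPARα-null mice without OA replicate 1 (y axis, log2, 4 against 3 mice), 1 point per gene, with the dashed line marking equal differences. Orange marks the 88 genes whose plotted probeset had a called interaction without that array. Acot3 lies near 0 on the y axis, Acot1 lies below it, and Pck1, G6pc, Sprr1a and Kdelr3 lie near the dashed line.

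Pancreatic acinar RNA was detected, although the methods state that pancreatic tissue was removed. The 15 expressed markers of the acinar list include Zg16, which is also on the goblet cell list. Of these 15, 2 (Pnliprp2 and Prss2) were lower after WY14643 in wild-type mice and 1 (Spink1) was higher, with a median difference of −1.43. The log2 of their summed level ranged from 15.51 to 16.46 after WY14643 and from 15.84 to 17.13 after OA. In null mice, without the doubtful array, 13 of them were lower (11.2% of all genes), with a median difference of −4.30. Their part in the other results was not tested. The 3 expressed T cell markers, Cd8a, Gzma and Gzmb, rose by 0.58, 0.79 and 1.12, and the call of Cd8a was lost without any 1 of 6 of the arrays. The log2 of their summed level was 9.88 to 10.35 after WY14643 and 8.92 to 9.70 after OA, and their part in the other results was not tested. The other T cell markers listed, Cd3e, Cd3d, Cd3g, Cd4 and Lck, had no expressed single-symbol probeset. The same held for the hepatocyte and erythrocyte markers listed. No B cell, macrophage, smooth muscle, endothelial or tuft cell marker was called. The 4 expressed tuft cell markers still had a median difference of 0.52. The log2 of their summed level was 7.59 to 9.17 after WY14643 and 6.96 to 7.81 after OA. Pdgfra, 1 of 6 expressed fibroblast markers, and Pla2g2a, 1 of 5 expressed Paneth cell markers, were called lower.

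Docosahexaenoic acid (DHA), given as its triacylglycerol to 5 wild-type mice, was a second fat gavage. WY14643 against DHA gave 3282 called genes (38.0%), 1605 higher (18.6%) and 1673 lower (19.4%). DHA against OA gave 363 (4.21%), 134 higher (1.55%) and 229 lower (2.65%). These contrasts share arrays with the one described here, so the values are only set side by side. Acot3, Slc16a13, Ehhadh and Pck1 had means of 3.34, 5.29, 9.92 and 7.93 after DHA and of 3.19, 5.36, 9.58 and 8.54 after OA. None of these was called between DHA and OA. Sprr1a (mean 9.33 after DHA, 9.34 after OA), Agr2 (11.97 and 11.89) and Rrm2 (9.26 and 9.17) were likewise not called between the fats.

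Other genes differed between the fats. Dnah2, an axonemal dynein, had means of 5.17 after WY14643, 7.70 after OA and 5.13 after DHA. The WY14643 minus OA difference was −2.52 ± 0.21 and the DHA minus OA difference −2.56 ± 0.21 (adjusted p = 0.000193 and 0.000238). Slc6a3, the dopamine transporter, and Lrrc75b had DHA minus OA differences of −2.85 and −2.87 and WY14643 minus OA differences of −2.59 and −2.37. For Usp18 the DHA minus OA difference was −1.58, and for Cyp2c29, a drug-metabolising P450, it was 2.84, beside a WY14643 minus OA difference of 2.30. Srebf1 had means of 10.07 after WY14643, 9.55 after OA and 7.58 after DHA. Kdelr3 and Tubb2a had means of 6.92 and 10.27 after DHA, between those of the other groups.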

How the data were processed

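Affymetrix gene chips measured the RNA of 1 mouse each. The authors deposited log2 values that they had normalised with GCRMA (version not given in the sources used here). All 35 arrays come as 1 value table, and no intensities or background calls were used here. The number of arrays limits the precision. The p-values set each difference against the spread between these mice, moderated over the expressed probesets.

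Analyses were run in R 4.3.3 with limma 3.58.1 (lmFit and eBayes with an intensity trend), and in Python 3.11.15 with pandas 2.3.3, numpy 2.4.6 and matplotlib 3.10.9. The wild-type contrast was fitted on its 8 arrays, the null contrast on its own arrays, and the interaction on both together. The Benjamini-Hochberg adjustment covered the 15384 expressed probesets. The unadjusted p under 0.01 follows the methods. The fit was tested on simulated data. Probesets with several symbols (932) or none (9160) were not counted as genes.

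Named genes were the 15 largest rises and 15 largest falls, up to 6 called members and the first 3 genes of each of 35 lists, and transporter and metabolism genes of the study. Genes with a called interaction were added after their values were seen. For each gene the called probeset of lowest p is given, otherwise that of highest mean. The contrast and the lists were chosen with earlier results of these data known. Promoters are from RefSeq (GRCm38.p6). Alternatives covered the filter, the variance model, the arrays fitted, the normalisation, a pseudocount of 32, array weights, the probesets, the threshold, a replicate block and each array left out.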

Additional observations from a re-analysis of the deposited data

Results flagged for a closer look

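In the genes given with values in the text, 13 of 220 groups of 4 mice held a mouse that lay far from the other 3, with a gap to its neighbour that took most of the group's range (Dixon's test). Chance alone marks about 1 in 20 groups. In 9 of them the mouse was WY14643 replicate 4. Its log2 levels were 11.52 for Abcg2, 11.38 for Abcg5, 9.83 for Abcg8, 6.39 for Acot3, 11.05 for Etfdh, 11.56 for Hadha, 5.22 for Lipe, 10.82 for Nr1d2 and 6.03 for Slc6a3. The others were Abca1 at 7.16 in OA replicate 4, Phgdh at 4.64 in WY14643 replicate 3, Slc5a4a at 4.28 in OA replicate 2 and Srebf1 at 9.26 in OA replicate 2.

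The difference between WY14643 and OA differed between wild-type and PPARα-null mice, whose substrains also differ, for 33 of these genes. This was by the interaction of limma with Benjamini-Hochberg adjustment, both as labelled and without PPARα-null OA replicate 1. Some genes were named because their interaction was called, so this count does not measure how frequent an interaction is. Over all 8626 expressed genes, 86 passed both ways. The interactions given are log2 values without that array, the wild-type minus the PPARα-null difference. They were 4.84 for Acot3, 3.52 for Acacb, 3.08 for Acot1, 2.86 for Slc16a13 and 2.58 for Aqp3. Between 1.5 and 2.5 lay 2.16 for Hsdl2, 1.91 for Acot2, 1.89 for Pxmp4, 1.86 for Slc25a20, 1.70 for Ehhadh, 1.69 for Fitm2, 1.58 for Eci2, 1.58 for Slc22a5, 1.58 for Pex11a, 1.56 for Mgll and 1.52 for Fah. Between 1 and 1.5 lay 1.44 for Gadd45b, 1.34 for Retsat, 1.31 for Scarb2, 1.30 for Eci1, 1.26 for Pank1, 1.20 for Ppcs, 1.19 for Nr1h4, 1.12 for Hadha, 1.06 for Cpt1a and 1.04 for Hadhb. The smallest positive ones were 0.99 for Hsd17b4, 0.95 for Etfdh, 0.89 for Cpt2, 0.88 for Abcd3, 0.65 for Abcg2 and 0.54 for Lpcat3. Pparg had a negative one, −1.50.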

How the results depend on the processing

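No gene given with values changed direction under the alternatives run. Of 2604 values for 110 genes, 2564 kept their call and 40, of 17 genes, lost it. Of 1680 counts of list members, 196 moved by over 1.5 times, or to or from 0. Leaving out 1 array ended the call of Atf3 and Per3 (without WY14643 replicate 2), Srebf2 (without WY14643 replicate 1), Srebf1 (without WY14643 replicate 2 or OA replicate 2), Sdf2l1 (without WY14643 replicate 1 or 3 or OA replicate 2) and Cd8a (without 6 of the 8 arrays, each in turn). With all 35 arrays in the fit, Acot2, Cpt1a, Lpcat3, Gzma and the probeset of Cyp4a10 and Cyp4a31 lost theirs, and with 32 arrays Slc10a2 and Gzma did. Srebf1 and Cd8a lost theirs in both of these fits, and Cd8a also without a filter, with the replicate block and at an unadjusted p of 0.01. At an adjusted p under 0.01 the calls of Egr1, Gzmb, Mki67, Pex11a and Sqle were lost too, besides some of those already named. The causes were not tested.

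At an adjusted p under 0.01, 1464 genes were called in wild-type mice, 744 higher and 719 lower. More genes were lower than higher at the main threshold (1464 and 1415), and this balance turned there and without WY14643 replicate 1 (1081 higher, 1008 lower), OA replicate 1 (1281, 1247) and OA replicate 3 (1226, 1199). With each array left out in turn the count ranged from 2091 to 3112, with 1077 to 1424 higher and 1008 to 1685 lower. In PPARα-null mice it ranged from 1249 (without WY14643 replicate 3) to 2300, and was 1456 without OA replicate 3. The interaction was called for 63 to 164 genes, with 63 without wild-type WY14643 replicate 2 and 164 without replicate 4, and for 473 at an unadjusted p under 0.01. Same-numbered arrays of the 2 gavages correlated between −0.10 and 0.52 in wild-type and between −0.58 and 0.11 in null mice. Not every array correlated best with its own number. Wild-type replicate 3 did, at 0.52 against at most 0.03 with another number. These correlations cannot decide whether the numbers pair the mice. With the replicate block, 3331 genes were called in wild-type mice (1623 higher, 1703 lower), 1160 in null mice and 99 for the interaction. The cause of these shifts was not tested. Levels near log2 5 limit the fold changes that can be given.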
